A study of Drosophila melanogaster with 12 samples.

Results

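The proteasome is the large protease that degrades proteins tagged with ubiquitin. Its core particle is a barrel of stacked alpha and beta rings: the alpha rings gate the entrance, and some of the beta subunits cut peptide bonds. Its regulatory particle sits on the end of the barrel, where ubiquitin receptors and a deubiquitinase handle the tag and a ring of ATPases unfolds the substrate and feeds it into the core. The subunits assemble in fixed proportions, and when proteasome activity is blocked their genes can be induced together, in flies by Cnc and in mammals by its relative Nrf1.

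Genes were taken as proteasome subunit genes where their name in the count data began with Prosalpha, Prosbeta, Rpn or Rpt followed by a digit and where they averaged at least 10 raw counts over the 12 libraries. Of 17737 genes counted, 47 had such a name, and 34 of these also met the minimum. The 34 were 13 genes of the core particle (6 alpha and 7 beta subunits) and 21 genes of the regulatory particle (8 ATPases and 13 non-ATPase subunits). Among them, 31 carried the plain subunit name, and 3 (Rpt3R, Rpt6R and Rpn13R) were additional copies marked by a closing R.

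RNA was measured in pools of 60 heads of newly eclosed adult Drosophila melanogaster in 4 groups of 3 libraries. The groups were Nab2 null females, wild-type females, Nab2 null males and wild-type males, where the null flies carried the allele Nab2ex3 and the flies labelled wild type carried Nab2pex41. The study asked what loss of Nab2, an RNA-binding protein that binds polyadenosine tails, changes in the heads of each sex. The alleles are present in every cell of the fly, and a head holds many cell types, so that fewer cells of a type and less RNA per cell cannot be told apart. The series calls the libraries biological replicates, and p-values measure the spread between these pools.

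The libraries held 23648813 to 30751922 counts assigned to genes. Nab2 itself had 13, 20 and 32 counts in null females against 1697, 1612 and 1362 in wild-type females, and 82, 15 and 11 counts in null males against 1635, 1946 and 1897 in wild-type males. Null female library 1 stood apart: its counts differed from those of the other null female libraries by a chi-square of 126 and 104 per degree of freedom, where the other replicate pairs of the study had 5.86 to 37.5. The share of the abundant nuclear RNA 7SK was 1.91% there and 0.960% to 1.27% elsewhere. Markers of neurons, glia, photoreceptors, muscle and fat body were all detected in every group. The summed CPM of 6 fat body markers was 15395 to 23027 in null females against 3416 to 4984 in wild-type females, and 3669 to 6937 in null males against 2275 to 3606 in wild-type males. For 6 neuronal markers it was 1325 to 1795 in null females against 1922 to 2013 in wild-type females, and 2020 to 2212 in null males against 1943 to 2687 in wild-type males. For 6 photoreceptor markers it was 36482 to 48011 in null females against 28974 to 32786 in wild-type females, and 32647 to 37675 in null males against 28831 to 31103 in wild-type males. For 5 muscle markers it was 11324 to 13336 in null females against 13587 to 16163 in wild-type females, and 8835 to 11585 in null males against 10371 to 11434 in wild-type males. For 5 glial markers it was 1483 to 1629 in null females against 1589 to 1676 in wild-type females, and 1481 to 1602 in null males against 1574 to 1662 in wild-type males. At an adjusted p under 0.05, edgeR called 5 of 6 fat body and 1 of 6 photoreceptor markers higher in null females. It called 1 of 6 neuronal markers lower, 0 of 5 muscle markers, and 2 of 5 glial markers lower with 1 higher. Over all genes tested, 13.6% were lower and 18.2% higher. In null males edgeR called 2 fat body markers and 1 glial marker higher, and no neuronal, photoreceptor or muscle marker. There 5.03% of all genes were lower and 4.89% higher. The part of these differences in the results below was not tested.

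Levels of the 31 genes with plain names lay close together when expressed per kilobase of exon. In null females they ran from 67.4 CPM per kb for Rpn1 and 72.7 CPM per kb for Rpn2 to 266 CPM per kb for Prosalpha5, a span of 3.94-fold. In wild-type females the same genes were at the ends, with 144 CPM per kb for Rpn1, 151 CPM per kb for Rpn2 and 366 CPM per kb for Prosalpha5, a span of 2.53-fold. The span was 2.39-fold in null males, with Rpn1 at 102 CPM per kb and Prosalpha5 at 244 CPM per kb. It was 2.40-fold in wild-type males, with Rpn1 at 135 CPM per kb and Prosalpha5 at 325 CPM per kb. Rpn1 and Rpn2, the large scaffold proteins of the regulatory particle, were the 2 lowest of the 31 in each group. Taken as shares of each library, the 34 genes made up 0.597% to 0.743% of counts in null females against 1.04% to 1.21% in wild-type females, and 0.621% to 0.889% in null males against 0.953% to 1.18% in wild-type males.

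In heads of females, RNA of most proteasome subunit genes was lower without Nab2. Of the 34 genes, 26 fell and 0 rose at an adjusted p under 0.05 (edgeR's quasi-likelihood test, adjusted over 11223 genes), where 13.6% of all genes tested fell and 18.2% rose. All 34 fitted changes were below 0, as were 49.2% over all genes tested, so that none was higher at an unadjusted p under 0.05, and DESeq2 called 30 genes, all of them lower, where it called 16.1% of all genes lower. The median log2 change was -0.57 over the 34 genes and 0.01 over all genes tested. By particle, 18 of the 21 regulatory genes fell (median -0.72) and 8 of the 13 core genes (median -0.43). The 3 null libraries lay below the 3 wild-type libraries for 32 of the 34 genes, as they did for 23.2% of all genes. Of the 26 calls, 18 held in each of 12 fits that left out 1 library. The other 8 calls (Prosalpha2, Prosalpha5, Prosalpha7, Prosbeta3, Prosbeta7, Rpn5, Rpn7 and Rpn13) were lost in the fit without library 2 or without library 3 of the wild-type females. Prosalpha2 and Prosalpha5 were also lost without null female library 2. These lost calls had adjusted p-values of 0.0520 to 0.0986 in edgeR.

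**Figure D1:**
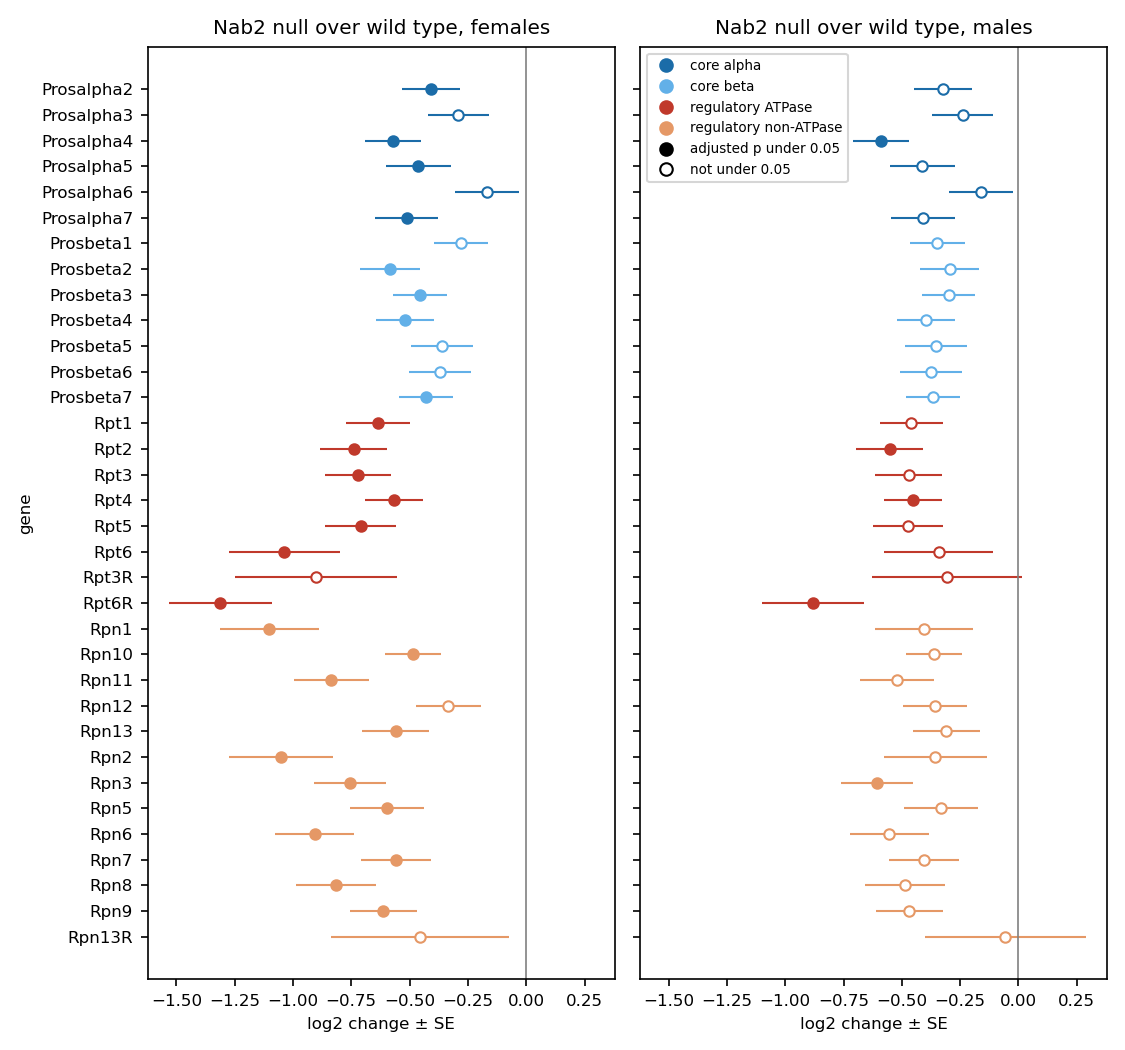
Log2 change with its standard error for each of the 34 proteasome subunit genes, Nab2 null over wild type, in females (left) and males (right); colours mark the kind of subunit and filled points an adjusted p under 0.05 (edgeR). All points lie left of 0 in both sexes, with 26 filled in females and 5 in males.

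Summed over the particles, the 13 core genes came to 2769, 2597 and 2698 CPM in null females, against 3323, 3597 and 3826 CPM in wild-type females. The 21 regulatory genes came to 4134, 4724 and 4978 CPM in null females, against 6814, 7986 and 8218 CPM in wild-type females. No null library reached any wild-type library in either sum. The null mean was thus 75.0% of the wild-type mean for the core and 60.1% for the regulatory particle. The ratio of the regulatory sum to the core sum was 1.49, 1.82 and 1.85 in null females against 2.05, 2.22 and 2.15 in wild-type females, also without overlap. The lowest of these ratios was that of null female library 1.

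**Figure D2:**
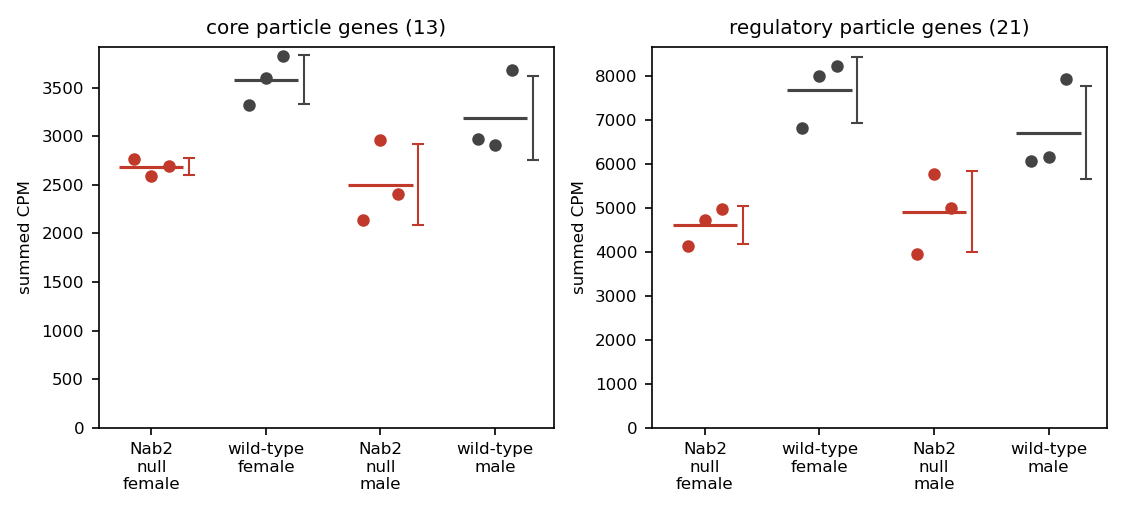
Summed CPM of the 13 core genes (left) and the 21 regulatory genes (right) in each library, with points for libraries, long lines for group means and bars for the standard deviation of the 3 libraries; both axes start at 0. In females the null points lie below all wild-type points for both particles, and in males the highest null point (2959 CPM for the core, 5766 CPM for the regulatory particle) is null male library 2.

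Among the alpha subunits of the core, 4 of 6 fell in null females (median log2 change -0.44), beside 13.6% of all genes tested. Prosalpha4, which lies on the X, was at 237, 237 and 236 CPM in null females against 324, 354 and 378 CPM in wild-type females, a log2 change of -0.57 ± 0.12 (SE; adjusted p = 0.00486, edgeR). The null libraries were nearly equal and lay below all wild-type libraries. Prosalpha6 had the smallest change of the 34 genes, with 238, 206 and 213 CPM in null females against 231, 242 and 265 CPM in wild-type females (log2 change -0.17 ± 0.14, adjusted p = 0.360, edgeR). Here null female library 1 lay above 1 of the wild-type libraries. Prosalpha3 was at 246, 228 and 238 CPM in null females against 268, 300 and 304 CPM in wild-type females (log2 change -0.29 ± 0.13, adjusted p = 0.108, edgeR): the groups did not overlap, but the change did not pass the test.

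Among the beta subunits, 4 of 7 fell in null females (median log2 change -0.43), beside 13.6% of all genes tested. The groups did not overlap for any of the 7, with the null lower, as for 23.2% of all genes. The catalytic subunits are Prosbeta1, which cleaves after acidic residues, Prosbeta2, which cleaves after basic residues, and Prosbeta5, which cleaves after hydrophobic residues. Prosbeta2 was at 167, 190 and 190 CPM in null females against 243, 288 and 290 CPM in wild-type females (log2 change -0.59 ± 0.13, adjusted p = 0.00584, edgeR). Prosbeta1 was at 193, 164 and 170 CPM in null females against 209, 201 and 230 CPM in wild-type females (log2 change -0.28 ± 0.12, adjusted p = 0.0875, edgeR). Prosbeta5 had a log2 change of -0.36 ± 0.13 (adjusted p = 0.0553, edgeR). Of the catalytic subunits, only Prosbeta2 thus passed the test, while the values of all 3 were lower in every null female library than in any wild-type one. The noncatalytic subunits ranged from -0.37 for Prosbeta6, which did not pass, to -0.52 for Prosbeta4.

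Of the 8 ATPase genes of the regulatory particle, 7 fell in null females (median log2 change -0.73), beside 13.6% of all genes tested. Rpt1 to Rpt6 all fell, by 0.57 (Rpt4) to 1.04 (Rpt6) on the log2 scale, and Rpt3R did not pass the test. Rpt6 was at 98.04, 178 and 207 CPM in null females against 285, 339 and 369 CPM in wild-type females (log2 change -1.04 ± 0.24, adjusted p = 0.00739, edgeR). Its level in null female library 1 was far below those in the other null libraries, and without that library the log2 change was -0.79 (adjusted p = 0.00839, edgeR). Rpt2 was at 321, 326 and 353 CPM in null females against 492, 591 and 587 CPM in wild-type females (log2 change -0.74 ± 0.14, adjusted p = 0.00338, edgeR), a tight group below every wild-type library. Rpt4 was at 245, 239 and 246 CPM in null females against 324, 387 and 370 CPM in wild-type females (log2 change -0.57 ± 0.13, adjusted p = 0.00659, edgeR).

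Rpt6R, a less abundant additional copy of Rpt6 on chromosome arm 3R (30582198 to 30583697, minus strand, assembly BDGP6.54), had the largest fitted fall of the 34 genes. It was at 12.6, 20.7 and 18.3 CPM in null females against 37.8, 39.4 and 51.3 CPM in wild-type females, a log2 change of -1.31 ± 0.22 (adjusted p = 0.00153, edgeR). Every null library was below every wild-type library, and without null female library 1 the log2 change was -1.14 (adjusted p = 0.00406, edgeR). Whether reads that match several copies of a subunit gene were counted is not given in the sources used here, so that values of additional copies are uncertain to that degree.

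Of the non-ATPase subunits of the regulatory particle, 11 of 13 fell in null females (median log2 change -0.61), beside 13.6% of all genes tested. The scaffolds Rpn1 and Rpn2 fell the furthest. Rpn1, which in yeast docks shuttle factors that bring ubiquitinated proteins, was at 138, 232 and 244 CPM in null females against 378, 480 and 460 CPM in wild-type females (log2 change -1.10 ± 0.21, adjusted p = 0.00321, edgeR). Rpn2 was at 163, 278 and 304 CPM in null females against 448, 546 and 550 CPM in wild-type females (log2 change -1.05 ± 0.22, adjusted p = 0.00508, edgeR). In both, null female library 1 was the lowest by a wide margin and the groups did not overlap. Without that library the log2 changes were -0.90 (adjusted p = 0.00470) for Rpn1 and -0.84 (adjusted p = 0.00785) for Rpn2, by edgeR.

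The ubiquitin receptors Rpn10 and Rpn13 fell by 0.48 and 0.56 on the log2 scale. Of the 8 lid subunits, 7 fell (median log2 change -0.68), beside 13.6% of all genes tested. Among the 7 were the deubiquitinase Rpn11 (-0.84 ± 0.16, adjusted p = 0.00301, edgeR) and its partner Rpn8 (-0.82 ± 0.17, adjusted p = 0.00517, edgeR). Rpn6, a lid subunit that braces the regulatory particle against the core, was at 293, 396 and 410 CPM in null females against 627, 688 and 748 CPM in wild-type females (log2 change -0.91 ± 0.17, adjusted p = 0.00269, edgeR). Rpn3, another lid subunit, was at 363, 369 and 387 CPM in null females against 548, 640 and 702 CPM in wild-type females (log2 change -0.76 ± 0.15, adjusted p = 0.00414, edgeR). The lid gene that did not pass was Rpn12, with 238, 199 and 205 CPM in null females against 253, 261 and 294 CPM in wild-type females (log2 change -0.33 ± 0.14, adjusted p = 0.0836, edgeR). All of its null values were still below its wild-type values.

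In heads of males, the same genes were also lower without Nab2 by their fitted values. Of the 34 genes, 5 fell (Prosalpha4, Rpt2, Rpt4, Rpt6R and Rpn3) and 0 rose by edgeR, where 5.03% of all genes tested fell and 4.89% rose. All 34 fitted changes were below 0, where 51.1% over all genes tested were. Of the 34, 25 were lower at an unadjusted p under 0.05, as were 12.7% of all genes tested, and DESeq2 called 16, all lower, where it called 6.57% of all genes lower. The median log2 change was -0.39 over the 34 genes, with -0.35 for the core and -0.45 for the regulatory particle, and -0.0048 over all genes tested. The groups did not overlap, with the null lower, for 18 of the 34 genes, as for 17.6% of all genes. All 5 genes called in males were among the 26 called in females, and 3.64% of all genes tested were called lower in both sexes.

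In males the core sums of the groups overlapped, and the regulatory sums did not. The core genes came to 2135, 2959 and 2412 CPM in null males, against 2976, 2912 and 3684 CPM in wild-type males. The regulatory genes came to 3935, 5766 and 5002 CPM in null males, against 6061, 6140 and 7916 CPM in wild-type males. The null means were 78.4% of the wild-type means for the core and 73.1% for the regulatory particle. The ratio of the regulatory to the core sum was 1.84, 1.95 and 2.07 in null males against 2.04, 2.109 and 2.15 in wild-type males, where null male library 3 lay within the wild-type range.

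Prosalpha4 was at 148, 200 and 159 CPM in null males against 237, 233 and 292 CPM in wild-type males (log2 change -0.59 ± 0.12, adjusted p = 0.00939, edgeR), and all null libraries were below all wild-type ones. Rpt6R was at 15.01, 21.01 and 14.87 CPM in null males against 25.6, 28.1 and 40.102 CPM in wild-type males (log2 change -0.88 ± 0.22, adjusted p = 0.0255, edgeR). As in females, it had the largest fitted fall of the 34 genes. Rpn3 was at 294, 437 and 367 CPM in null males against 500, 501 and 669 CPM in wild-type males (log2 change -0.61 ± 0.15, adjusted p = 0.0277, edgeR). Rpt2 was at 277, 397 and 338 CPM in null males against 455, 439 and 590 CPM in wild-type males (log2 change -0.55 ± 0.14, adjusted p = 0.0316, edgeR). Rpt4 was at 163, 222 and 191 CPM in null males against 236, 245 and 308 CPM in wild-type males (log2 change -0.45 ± 0.13, adjusted p = 0.0424, edgeR). In each of these genes the highest null value, that of null male library 2, was still below the lowest wild-type value.

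The number of male calls turned on single libraries. It was 21 without null male library 2 and 12 without null female library 1, but 3 when wild-type male library 1 was dropped and 1 when null male library 1, null male library 3 or wild-type male library 3 was left out. Counts over all genes moved in these fits too. The 1114 male calls became 1852 in the fit lacking null female library 1. Leaving out library 2 of the null males gave 1068, fewer than before, where the subunit calls rose. Dropping library 1 or 3 of that group gave 652 and 693, and dropping library 1 or 3 of wild-type males gave 624 and 841. The part of this wider movement in the subunit counts was not tested. The call of Prosalpha4 held in all 12 fits that left out 1 library. Those of Rpt2, Rpn3 and Rpt6R were lost without null male library 1 (adjusted p = 0.121, 0.107 and 0.101 in edgeR). The same held without null male library 3 (adjusted p = 0.0907, 0.0824 and 0.0985) and without wild-type male library 3 (adjusted p = 0.115, 0.102 and 0.0916). Rpt2 was also lost without wild-type male library 1 (adjusted p = 0.0549, edgeR). Rpt4 was lost when any library was left out other than library 1 of null females, library 1 of wild-type females or library 2 of null males, at adjusted p-values of 0.0521 to 0.158 in edgeR.

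Genes with large changes in females that were not called in males included the scaffolds. Rpn1 was at 238, 357 and 339 CPM in null males against 370, 386 and 479 CPM in wild-type males (log2 change -0.40 ± 0.21, adjusted p = 0.275, edgeR). Rpn2 was at 292, 443 and 425 CPM in null males against 439, 458 and 587 CPM in wild-type males (log2 change -0.36 ± 0.22, adjusted p = 0.374, edgeR). For Rpn1 the male groups did not overlap, while for Rpn2 null male library 2 lay just above the lowest wild-type library. Rpt6 was at 147, 216 and 192 CPM in null males against 214, 215 and 275 CPM in wild-type males (log2 change -0.34 ± 0.23, adjusted p = 0.428, edgeR). Rpn6 was at 316, 471 and 390 CPM in null males against 514, 529 and 683 CPM in wild-type males, and its log2 change of -0.55 ± 0.17 missed the threshold (adjusted p = 0.0589, edgeR).

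At the other end stood Prosalpha6, Prosalpha3 and Prosbeta2. Prosalpha6 was at 168, 232 and 178 CPM in null males against 200, 191 and 255 CPM in wild-type males (log2 change -0.16 ± 0.14, adjusted p = 0.551, edgeR), the smallest change of the 31 genes with plain names in both sexes. Prosalpha3 was at 195, 267 and 208 CPM in null males against 240, 239 and 313 CPM in wild-type males (log2 change -0.24 ± 0.13, adjusted p = 0.305, edgeR). Prosbeta2 was at 171, 229 and 203 CPM in null males against 227, 228 and 285 CPM in wild-type males (log2 change -0.30 ± 0.13, adjusted p = 0.178, edgeR). In all 3 genes null male library 2 reached into the wild-type range.

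Prosbeta1 and Rpn12, which did not pass in females, did not pass in males either. Prosbeta1 was at 137, 182 and 150 CPM in null males against 188, 184 and 224 CPM in wild-type males (log2 change -0.35 ± 0.12, adjusted p = 0.0849, edgeR). Rpn12 was at 157, 215 and 179 CPM in null males against 220, 206 and 280 CPM in wild-type males (log2 change -0.36 ± 0.14, adjusted p = 0.132, edgeR).

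The difference between the null effects in females and in males was tested directly. No gene of the 34 was called (edgeR), where 0.00891% of all genes tested were called. At an unadjusted p under 0.05 edgeR gave 2 genes of the 34 and 11.6% of all genes tested, and DESeq2 called 0 of the 34 and 0.245% of all genes. The genes at the unadjusted p were Rpn1, with a female minus male effect of -0.70 ± 0.30 (adjusted p = 0.427, edgeR), and Rpn2, with -0.70 ± 0.31 (adjusted p = 0.430, edgeR). The fitted effect was the more negative one in females for 30 of the 34 genes and for 46.5% of all genes tested. The median of the difference was -0.05 for the core and -0.25 for the regulatory particle on the log2 scale, and 0.03 over all genes tested. Without 1 library the core median lay between -0.17 and 0.10. It was above 0 without null male library 2 (0.10) or wild-type male library 2 (0.02), and it was -0.25 with the length trend described below removed. The regulatory median lay between -0.39, when wild-type male library 3 was dropped, and -0.11, when library 2 of the null males was. The male effects of Rpn1 and Rpn2 are among those with the largest standard errors of the 31 genes, and a p that misses the threshold does not show that the sexes acted alike.

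The subunit genes moved together between replicates of 1 group as well. In null males, library 2 was the highest of the 3 for all 31 genes with plain names, by a median of 0.38 above the mean of the other libraries on the log2 scale. Null male library 1 was the lowest for all 31, with a median of -0.41. In wild-type males, library 3 was the highest for all 31, with a median of 0.35, and in wild-type females library 1 was the lowest for 30 of 31, with a median of -0.20. The same deviations over all genes tested had medians between -0.02 and 0.03 in all 12 libraries. The scaling of the libraries keeps such medians near 0, so that they do not show whether other sets of genes moved likewise. In null females the libraries were not ordered this way: library 1 was the lowest for 19 genes and the highest for 10.

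**Figure D3:**
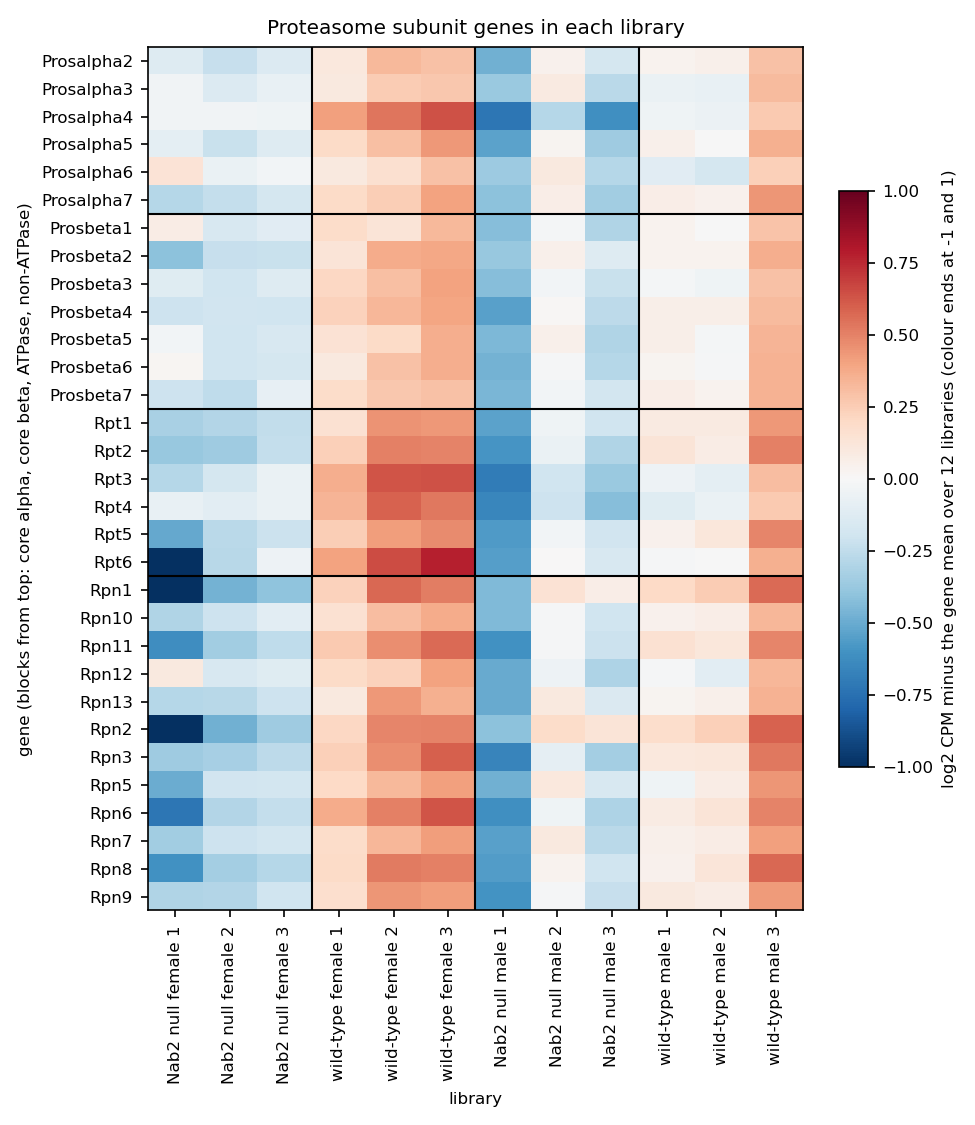
Log2 CPM of the 31 genes with plain names in each of the 12 libraries, as the difference from the mean of that gene over the 12 libraries; blocks from top to bottom are core alpha, core beta, ATPase and non-ATPase subunits. Whole columns differ in shade within a group (null male libraries 1 and 2, wild-type male library 3), and in null female library 1 the cells of Rpt6, Rpn1 and Rpn2 are the darkest blue.

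The deviation of library 1 went with gene length in every group. Exonic lengths of the 31 genes ran from 815 to 3412 bases with a median of 1393, and the longest were Rpn1 (3041 bases) and Rpn2 (3412 bases). Relative to the mean of the other null female libraries, Rpn12 (995 bases) was higher in library 1 by 0.24 and Prosbeta1 (852 bases) by 0.21 on the log2 scale. Rpn1 was at -0.78, Rpn2 at -0.83 and Rpt6, of 1404 bases, at -0.97 on the same scale. Across genes, Spearman's rho between this deviation and exonic length was -0.70 over the 31 genes and -0.49 over 11177 genes, which all share the same libraries and are not independent replicates. For library 1 of the other groups, measured the same way, rho over the 31 genes was -0.61 in wild-type females, -0.69 in null males and -0.72 in wild-type males. Over all genes it was -0.29 in wild-type females, -0.15 in null males and -0.28 in wild-type males. For libraries 2 and 3, rho over the 31 genes ran from -0.11 (wild-type female library 3) to 0.70 (null female library 3). Over all genes it ran from -0.21 (null male library 2) to 0.44 (null female library 2). In null males, library 2 thus had a lower rho over all genes than library 1.

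The change between null and wild-type females went with length too: Spearman's rho across genes was -0.76 over the 31 genes and -0.35 over 11177 genes. Without null female library 1 it was -0.71 over the 31 genes and -0.22 over all genes. When a trend of each library's log2 CPM on exonic length was removed, rho was 0.02 over all genes and -0.54 over the 31, and 33 of the 34 genes were called lower. Over all 11177 genes in that fit, 1557 were called lower and 1798 higher, beside 1531 and 2042 of 11223 genes without the correction. The median log2 change was then -0.64 for the core and -0.81 for the plain-named regulatory genes, so that both particles were lower with and without this correction and the gap between them was smaller with it. In males, rho between the change and length was -0.41 over the 31 genes and -0.09 over all genes. Particle and length largely went together: the core genes were 815 (Prosbeta4) to 1215 (Prosbeta7) bases long. Of the plain-named regulatory genes, only Rpn12 (995 bases) and Rpn11 (1208 bases) lay in that range. Their log2 changes in females were -0.33 and -0.84. The part of length in the difference between the particles was not tested beyond these values.

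**Figure D4:**
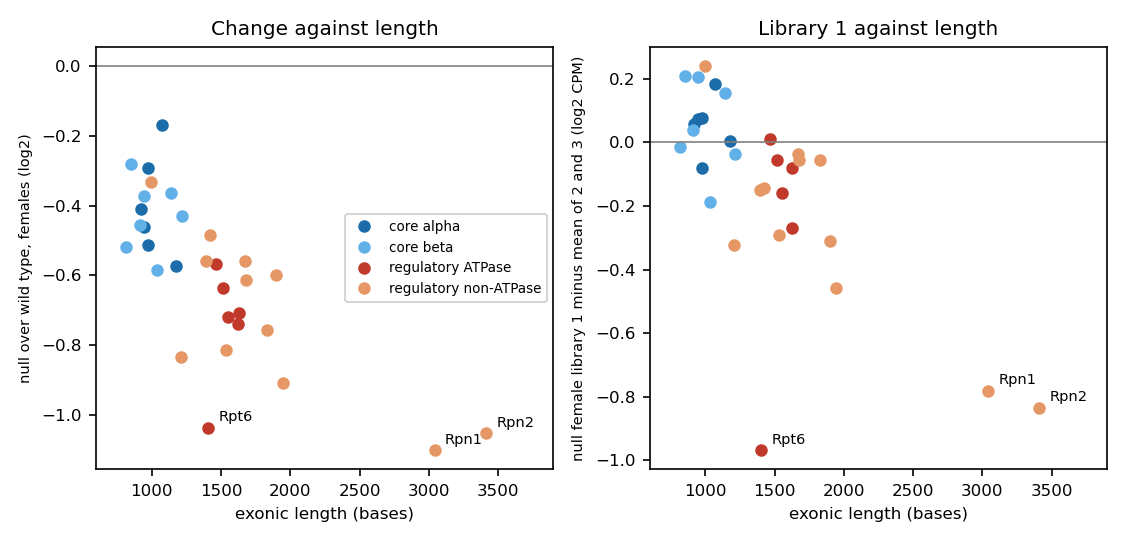
Exonic length in bases (horizontal) against the log2 change of null over wild-type females (left) and against the log2 CPM in null female library 1 minus the mean of null female libraries 2 and 3 (right), 1 point for each of the 31 genes with plain names, coloured by kind of subunit. Longer genes lie lower in both panels (Spearman's rho -0.76 and -0.70), and Rpt6 lies apart from genes of similar length.

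Males and females of 1 genotype were then compared. In wild-type heads no gene of the 34 was called between males and females by edgeR, where 2.07% of all genes tested were lower and 1.3% higher in males. At an unadjusted p under 0.05 there were 3, Prosalpha4, Rpt3 and Rpt4, all lower in males, as were 9.57% of all genes tested. DESeq2 called 3 genes lower in males, where it called 3.33% of all genes lower. All 31 plain-named genes had fitted values below 0 for males over females, as had 51.1% of all genes tested. The 4 of them on the X chromosome stood at -0.45 (Rpt4, adjusted p = 0.0801), -0.47 (Prosalpha4, adjusted p = 0.0562), -0.48 (Rpt3, adjusted p = 0.101) and -0.50 (Rpt6, adjusted p = 0.304) on the log2 scale by edgeR. The 27 on autosomes ran from -0.26 to -0.06. The medians were -0.48 for the 4 X-linked and -0.14 for the 27 autosomal subunit genes, beside 0.01 over 1791 X-linked genes and -0.01 over 9381 autosomal genes tested. For each of the 4, every wild-type male library was below every wild-type female library, as for 15% of all genes tested. Of the 3 additional copies, the X-linked Rpn13R (mean of 19.3 counts) went the other way, at 0.26. It was at 0.84, 0.83 and 0.88 CPM in wild-type males against 0.76, 0.65 and 0.71 CPM in wild-type females. On arm 3R, Rpt6R stood at -0.45, level with Rpt4, and Rpt3R at -0.04. The split by chromosome thus held for the plain-named genes and not for Rpn13R and Rpt6R. This split was noticed after the values were seen and was not tested.

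In null heads, 1 subunit gene was lower and 2 were higher in males than in females by edgeR, where 16% of all genes tested were lower and 13.1% higher. Fitted values were below 0 for 17 of the 34 genes and for 56% of all genes tested. Prosalpha4 was lower (148, 200 and 159 CPM in null males against 237, 237 and 236 CPM in null females; log2 change -0.49 ± 0.12, adjusted p = 0.0153, edgeR). This call was lost without null male library 3, at an adjusted p of 0.0664, and with the length trend removed, at a log2 change of -0.29 and an adjusted p of 0.112. Rpn1 (log2 change 0.60 ± 0.21, adjusted p = 0.04999, edgeR) and Rpn2 (0.64 ± 0.22, adjusted p = 0.0484, edgeR) were higher, although the groups overlapped. Without null female library 1 their log2 changes were 0.40 (adjusted p = 0.134) and 0.42 (adjusted p = 0.1248). Both calls were also lost, at adjusted p-values of 0.0567 to 0.150, when any 1 of the wild-type female libraries, library 2 or 3 of null males, or library 1 or 2 of wild-type males was left out, and that of Rpn1 when library 3 of wild-type males was (0.0511). The X-linked Rpt6 had a log2 change of 0.20, which was -0.05 without null female library 1.

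**Figure D5:**
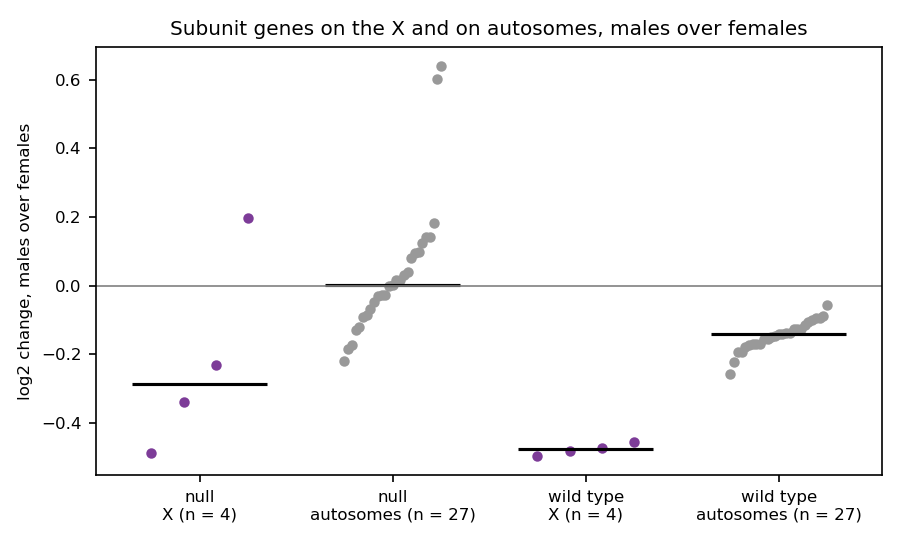
Log2 change of males over females for the plain-named subunit genes on the X (4 genes, purple) and on autosomes (27 genes, grey), in null heads (left pair) and in wild-type heads (right pair), with a line at each median. In wild-type heads the 4 X-linked genes lie between -0.50 and -0.45, below all 27 autosomal genes, and in null heads they spread from -0.49 to 0.20.

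Some subunit genes lay near the minimum of 10 counts, and these are given as raw counts. Just inside it were Rpt3R, with a mean of 13.2 counts over the 12 libraries, and Rpn13R, with 19.3. Rpt3R had 5, 7 and 12 counts in null females against 14, 19 and 14 in wild-type females (log2 change -0.90 ± 0.35, adjusted p = 0.0656, edgeR), and 16, 7 and 12 in null males against 16, 18 and 18 in wild-type males. Its exons share 20 bases with the more abundant gene Alg12 on the opposite strand, and the strand setting of the counting is not given in the sources used here. Rpn13R had 7, 23 and 9 counts in null females against 22, 17 and 17 in wild-type females, and 29, 14 and 18 in null males against 23, 27 and 26 in wild-type males (log2 change in males -0.06 ± 0.35, adjusted p = 0.951, edgeR). Its male change turned to 0.15 without null male library 2 and to 0.01 without null male library 3. Across the 34 genes, 13 shared exonic bases with a neighbour on the opposite strand, over 0.06% to 12.96% of their exonic length.

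Just outside the minimum were Prosalpha1, with a mean of 6.42 counts, and Prosbeta2R2, with 7.67. Prosalpha1 is the remaining alpha subunit gene of the core and was the only plain-named one under the minimum. It had 7, 6 and 9 counts in null females against 8, 8 and 3 in wild-type females, and 3, 5 and 5 in null males against 6, 3 and 14 in wild-type males. The neighbouring gene CG30382, now named Prosalpha1R, had between 2 and 15 counts in each library, so that both copies on arm 2R (7827303 to 7828678 and 7830413 to 7831771) were nearly empty where the other alpha subunit genes averaged 5342 counts or more. Reads that match both copies may have been left out of the counting, which was not tested, and the values of these copies are uncertain. Prosbeta2R2 had 9, 5 and 9 counts in null females against 2, 7 and 7 in wild-type females, and 8, 7 and 6 in null males against 12, 14 and 6 in wild-type males.

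The 12 additional copies under the minimum, most of them known for expression in the testis, held few reads in heads. Together they had 12, 14 and 19 counts in null females against 11, 22 and 18 in wild-type females, and 20, 26 and 17 in null males against 42, 94 and 39 in wild-type males. Wild-type males were above all other groups, and the highest library was wild-type male library 2. Of 13 testis markers, 9 had more counts in every wild-type male library than in any other library. Among them, don juan (dj) had 0, 0 and 0 counts in null females against 1, 0 and 0 in wild-type females, and 5, 4 and 0 in null males against 16, 51 and 15 in wild-type males. The summed CPM of 13 testis markers was 1.66 to 2.36 in null females against 1.72 to 2.40 in wild-type females, and 1.62 to 6.39 in null males against 10.3 to 33.2 in wild-type males. The part of testis RNA in the counts of these copies was not tested.

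Other genes of the pathway were read from lists. Among 13 assembly factors, activators and partners of the proteasome, 5 fell and 1 rose in null females by edgeR (median log2 change -0.22), where 13.6% of all genes tested fell and 18.2% rose. The largest fall was that of Usp14, a deubiquitinase that docks on the regulatory particle, which was at 152, 207 and 220 CPM in null females against 345, 413 and 391 CPM in wild-type females (log2 change -0.99 ± 0.17, adjusted p = 0.00196, edgeR). Uch-L5, the deubiquitinase bound by Rpn13, was at 64.1, 92.9 and 94.1 CPM in null females against 137, 144 and 170 CPM in wild-type females (log2 change -0.84 ± 0.21, adjusted p = 0.0111, edgeR). Both proteins work on the regulatory particle, and in neither gene did the groups overlap. The shuttle factor Rad23 fell by 0.45, CG8858, the fly counterpart of yeast Ecm29, by 0.47 and the maturation factor Pomp by 0.35 on the log2 scale. The call of Pomp was lost when library 1 of null females (adjusted p = 0.0833) or library 1 or 3 of wild-type females (0.0723 and 0.115) was left out in edgeR, and the change of CG8858 was -0.27 with the length trend removed. REG, the activator that caps the core in place of the regulatory particle, rose by 0.39 ± 0.09 (adjusted p = 0.00925, edgeR).

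In males, 1 of these 13 genes fell and 0 rose by edgeR, where 5.03% of all genes tested fell and 4.89% rose. At an unadjusted p under 0.05 there were 4, of which 1 was higher, beside 24.1% of all genes tested. The gene that fell by edgeR was Rad23 (log2 change -0.40 ± 0.10, adjusted p = 0.0264, edgeR), a call that was lost when library 1 or 3 of null males or library 2 or 3 of wild-type males was left out, at adjusted p-values of 0.0521 to 0.113. Usp14 was at 171, 259 and 225 CPM in null males against 295, 303 and 388 CPM in wild-type males (log2 change -0.59 ± 0.17, adjusted p = 0.0520, edgeR), just short of the threshold, without overlap between the groups. REG had a male log2 change of 0.02, which was -0.01 under scaling by total counts and -0.04 without wild-type male library 3.

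The transcription factor Cnc and its pathway, read from 6 genes, had changes in both directions. In null females 1 fell and 2 rose by edgeR, beside 13.6% and 18.2% of all genes tested. GstD1, a glutathione transferase known as a Cnc target, was at 425, 458 and 414 CPM in null females against 219, 181 and 201 CPM in wild-type females (log2 change 1.11 ± 0.11, adjusted p = 5.6e-05, edgeR). In males it was at 400, 460 and 344 CPM in null heads against 205, 200 and 207 CPM in wild-type heads (log2 change 0.97 ± 0.11, adjusted p = 1.87e-04, edgeR), the only one of the 6 called there, where 4.89% of all genes rose. GstD1 was thus higher in all null libraries of both sexes. The cnc gene itself was at 327, 450 and 414 CPM in null females against 486, 495 and 511 CPM in wild-type females (log2 change -0.32 ± 0.12, adjusted p = 0.0514, edgeR), and its male log2 change was -0.10. Its dimer partner maf-S rose by 0.41 in females, which was 0.12 and not called with the length trend removed (adjusted p = 0.185, edgeR). Pngl, the counterpart of an enzyme that takes part in the activation of Nrf1 in mammals, fell by 0.29, and that call was lost without null female library 1 (adjusted p = 0.0623) or wild-type female library 2 (0.0866) or 3 (0.0885).

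Upstream of the proteasome, 16 genes for ubiquitin and its conjugation were read: in null females 4 fell and 2 rose, and in null males 0 were called by edgeR (1 at an unadjusted p under 0.05, the polyubiquitin gene Ubi-p5E, beside 24.1% of all genes). Over all genes tested, 13.6% fell and 18.2% rose in null females. The median log2 changes were -0.12 in females and -0.07 in males. The ligase Ube3a fell by 0.63 ± 0.13 in females (adjusted p = 0.00450, edgeR), and the conjugating enzyme Ubc7 rose by 0.35 ± 0.07 (adjusted p = 0.00519, edgeR). The activating enzyme Uba1 fell by 0.45 and Ubi-p5E by 0.55 on the log2 scale, and both calls were lost without wild-type female library 2 or 3 at adjusted p-values of 0.0552 to 0.0742 (edgeR). The change of Uba1 was -0.30 with the length trend removed. The conjugating enzyme Ubc6 had a log2 change of -0.47 that was -0.29 and not called without null female library 1 (adjusted p = 0.0759, edgeR). Its call was also lost when any wild-type female library, library 3 of null males, or library 1 or 2 of wild-type males was left out, at adjusted p-values of 0.0524 to 0.112. RpS27A, which encodes ubiquitin fused to a ribosomal protein, had a log2 change of 0.53 that was 0.24 without null female library 1 (adjusted p = 0.0332, edgeR) and 0.20, no longer called, with the length trend removed (adjusted p = 0.188, edgeR). It was also not called without any 1 of the wild-type female libraries (adjusted p = 0.0578 to 0.0759).

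TER94, the p97 segregase that pulls ubiquitinated proteins out of complexes and membranes, and its partners had lower fitted values in both sexes for all 7 genes listed, where 49.2% of all genes in females and 51.1% in males had values below 0. In null females 5 fell by edgeR, beside 13.6% of all genes tested. In null males 0 were called by edgeR, where 5.03% of all genes fell, and 3 had an unadjusted p under 0.05, beside 24.1% of all genes. TER94 was at 517, 706 and 731 CPM in null females against 939, 1074 and 1088 CPM in wild-type females (log2 change -0.67 ± 0.14, adjusted p = 0.00494, edgeR). In males it was at 683, 855 and 854 CPM in null heads against 918, 949 and 1085 CPM in wild-type heads (log2 change -0.30 ± 0.14, adjusted p = 0.210, edgeR). The null libraries lay below the wild-type ones in both sexes. Its cofactors Npl4, p47, Plap and casp fell by 0.30 (Plap) to 0.56 (Npl4) in females. The call of casp was lost without wild-type female library 3 (adjusted p = 0.0745), and that of Npl4 without wild-type female library 2 or 3 (0.0610 and 0.0717). Those of Plap (0.0562 to 0.0825) and p47 (0.0507 to 0.160) were lost when library 2 or 3 of wild-type females or library 2 of null females was left out, and that of p47 without most other libraries as well.

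The authors' deposited table holds log2 fold changes from DESeq2, and whether these were moderated towards 0 was not tested. In the authors' deposited table, 29 of the 34 subunit genes were lower and 0 higher in null females than in wild-type females at an adjusted p under 0.05, with a median log2 change of -0.55. For males the authors' deposited table gave 13 lower and 0 higher, with a median log2 change of -0.35. The share of all genes called in that table is not given here, so that its counts of subunit genes have no background beside them. The table's sex comparisons run as female over male. In wild-type heads, the authors' deposited table called 3 subunit genes, all lower in males than in females: Prosalpha4 (log2 female over male 0.45, adjusted p = 0.00814), Rpt3 (0.45, adjusted p = 0.0367) and Rpt4 (0.43, adjusted p = 0.0201). In null heads, the authors' deposited table called Prosalpha4 lower in males (0.44, adjusted p = 0.00349) and Rpn1 (-0.55, adjusted p = 0.0192) and Rpn2 (-0.58, adjusted p = 0.0173) higher in males.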

How the data were processed

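RNA was measured by rRNA-depleted, stranded, paired-end sequencing of 12 libraries of heads, per the labels' protocols. Per the submitters' processing notes, the tools were STAR 2.5.2b-0, featureCounts 1.6.0.3 and DESeq2 2.11.40.1, and the build was BDGP6. Per the file headers, the authors deposited raw counts per gene for each library, and a table of log2 fold changes and adjusted p-values (DESeq2) per comparison, of which only the subunit genes' values are quoted. Strand and multiple-match settings are not given in the sources used here. Among the deposited counts, those of null male library 3 alone are marked with a remark on how reads were oriented; whether they were counted with another strand setting was not tested.

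The counts went into edgeR 4.0.16 (R 4.3.3) with filterByExpr, which all 34 subunit genes passed, TMM scaling and the quasi-likelihood test, in a design with 1 coefficient for each group. P-values of the 5 contrasts were Benjamini-Hochberg adjusted over 11223 genes, and calls used a threshold of 0.05. CPM are counts scaled by the library size and its TMM factor; log2 CPM carry a pseudocount of 0.5, and fitted changes a prior count of 0.125. The SE was derived from the log2 change and its F statistic. Exonic lengths and positions come from the Ensembl annotation of BDGP6.54. With 3 libraries in a group, precision is set by the spread between libraries. The script was tested on simulated data.

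The alternatives were RLE factors, total counts, no filter, DESeq2 1.42.0, a fit of the compared groups only, a replicate block, leaving out each library, a member minimum of 100 counts and, added after seeing the data, removal of a length trend (lowess). The subunit genes and the lists of related genes were chosen with earlier results of these data known. Genes given in every library are those with the 4 lowest and 4 highest fitted changes of null over wild type in each sex, those called in males or between the sexes, and those near the minimum; other genes were named after their values were seen. No sequences are shown, and promoters were not analysed here.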

Additional observations from a re-analysis of the deposited data

How the results depend on the processing

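All 34 subunit genes were lower in null than in wild-type heads under nearly every alternative. The fits draw on the same 12 libraries, so that their values are not independent. Of 1292 fitted values over the genes, both sexes and the alternatives, 1290 were below 0. The exceptions were Rpn13R in males without null male library 2 (0.15) and 3 (0.0052), with -0.37 to 0.15 over the fits that left out 1 library. Signs also turned for Rpt6, males over females in null heads, without null female library 1 (-0.048 to 0.42 over such fits), and for REG in males under total counts (-0.011) and without wild-type male library 3 (-0.038 to 0.054). The number of subunit genes called in females stayed between 19 and 33; leaving out libraries gave 19 to 28. In males the 5 calls became 10 under total counts, 16 under DESeq2, 2 with the compared groups only and 1 to 21 without 1 library. In the replicate block fit they became 16. Deviations of same-numbered libraries had correlations of -0.176 to 0.283 (median 0.0865, against -0.0787 between different numbers). All 6 pairs of libraries numbered 1 lay at 0.177 to 0.249, but pairs numbered 2 and 3 reached -0.176 and -0.0751, so the numbers were not taken to pair the libraries. The difference between the sexes gave 0 subunit genes without any 1 library. For males over females in wild-type heads, 0 calls became 1 without a filter, 3 under DESeq2, 1 with the compared groups only, 3 with the replicate block and 0 to 3 without 1 library. In null heads the 3 calls became 0 with the compared groups only, 0 with the length trend removed and 0 to 4 without 1 library.

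Over all genes, the 3573 calls in females were 2303 with the compared groups only and 2068 to 3838 without 1 library, and the 1114 in males were 624 to 1852. The single call for the difference between the sexes became 2 without a filter, 27 under DESeq2, 0 with the replicate block and 0 to 3 without 1 library. The 378 calls for males over females in wild-type heads became 593 under DESeq2, 671 with the compared groups only and 149 to 848 without 1 library. The 3265 in null heads became 571 with the compared groups only and 914 to 3696. With the length trend removed, the core median was -0.64 in females, -0.25 for the difference and 0.13 for males over females in null heads. Leaving out 1 library moved the core median over -0.47 to -0.39 in females, -0.47 to -0.25 in males, -0.17 to 0.10 for the difference, -0.26 to -0.08 in wild-type and -0.24 to 0.01 in null heads. The regulatory median moved over -0.80 to -0.67, -0.57 to -0.30, -0.39 to -0.11, -0.30 to -0.09 and -0.06 to 0.22 in the same order. Scaling by total counts shifted the median of all genes by -0.11 in females and put the core sum of null females at 2505 CPM. The causes were not tested. Near 10 counts, Rpt3R and Rpn13R had SEs of 0.35 and 0.38 in females, against 0.24 for Rpt6.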
